A study of Mus musculus with 4 samples.

Results

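A set of 8 genes of the machinery by which cells recognise and engulf dying cells, debris and synapses was examined in single cells of the injured and uninjured mouse spinal cord, 8 of the 32287 genes in the deposited matrices. They were taken by name from the gene features: the engulfment receptors Megf10, Mertk, Axl and Trem2, the integrin subunit Itgb5, and the soluble bridging proteins Gas6, Pros1 and Mfge8. No measured value entered the choice of the genes, although earlier results of these data were known when they were chosen.

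A dying cell displays phosphatidylserine on its outer surface, and phagocytes read this lipid either directly or through bridging proteins. Gas6 and protein S (Pros1) bind the lipid with one end and receptor tyrosine kinases with the other, Gas6 both Mertk and Axl and protein S Mertk, whereas Mfge8 links the lipid to the integrin formed by alpha v and beta 5 (Itgb5). Megf10 is a transmembrane receptor through which astrocytes take up synapses and debris together with Mertk, and Trem2 is a lipid-sensing receptor of microglia and macrophages that signals through the adaptor Tyrobp.

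The study measured the activity of a pool of enhancer viruses in vivo, and the transcriptome of the same cells was used here. Mice of the Cx30-Tom line, aged 8 to 12 weeks in the study, carry a tamoxifen-induced tdTomato label driven by Cx30, a gap junction gene of astrocytes, and all of them, the uninjured controls too, received the adeno-associated virus pool in the blood. Injured mice had a spinal cord contusion 14 days after the virus and were sampled 3 days after injury, with 5 mm of cord taken around the epicentre and the matching stretch taken from uninjured cords. tdTomato-positive cells were sorted, and 1 gene expression library was made per condition from pooled animals, which the series gives as 1 to 2 of each sex. With 1 library per condition no difference between conditions has a replicate check, no p-value is given, and all 95% intervals (exact Poisson for levels, exact conditional binomial for ratios, Clopper-Pearson for shares) cover counting error only.

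After filtering, 879 injured cells (median 6816 unique molecular identifiers, UMIs, of genes per cell) and 4159 uninjured cells (median 3343) remained. Levels are UMIs summed over a class and divided by the class's gene UMIs, per 1000000 (CPM). Astrocyte-like cells numbered 387 injured and 3077 uninjured, microglia-like 128 and 31, ependymal-like 143 and 31, endothelial-like 70 and 26, fibroblast-like 43 and 95, neuron-like 47 and 173, and oligodendrocyte precursor (OPC)-like 41 and 14, the last described only in the injured library since a class needed 20 cells. All 8 markers of astrocytes were detected in the astrocyte-like class of both conditions, and all 8 microglial markers in the microglia-like class, which also held 8 of 8 monocyte and macrophage markers in the injured library (summed 9841 CPM) and 5 of 8 in the uninjured one (3626 CPM, with Ccr2, Ly6c2 and Arg1 at 0). Most of both sums was Lyz2, at 9009 CPM injured and 2651 CPM uninjured. In the same order Ccr2 stood at 74.55 and 0 CPM, Ms4a7 at 206 and 214 CPM and Mrc1 at 128 and 428 CPM. A cluster of 7 injured and 709 uninjured cells with RNA of both astrocytes and neurons was left unnamed. The sort was not pure for astrocytes, and its label tdTomato itself stood at 2233 and 399 CPM in injured and uninjured astrocyte-like cells and at 1926 and 1260 CPM in fibroblast-like cells, but at 32.3 CPM in injured microglia-like cells and 0 UMIs in uninjured ones. The libraries also differed in sex markers, with 250 cells scored female and 315 male in the injured library against 2 and 2770 in the uninjured one, so each ratio was also taken in male-scored cells alone. The files shared 7 cell barcodes between the libraries.

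**Figure D1:**
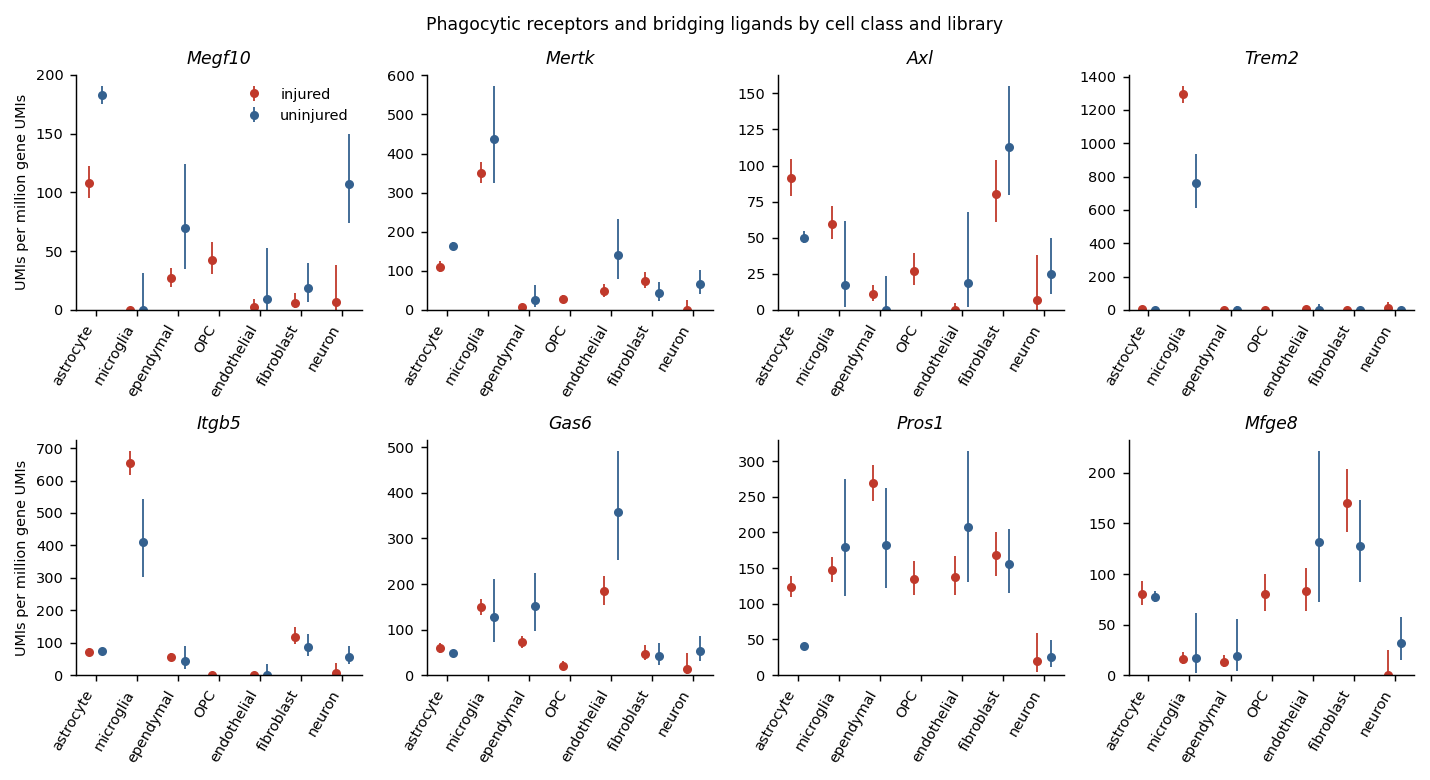
Levels of the 8 genes in CPM (y axis, own linear scale per gene) by marker-defined cell class (x axis) in the injured (red) and uninjured (blue) library. Points are class sums and bars are exact Poisson 95% intervals for counting error. Trem2 and Itgb5 stand highest in microglia-like cells, Megf10 in astrocyte-like cells, and Pros1 is found in every class, at its lowest in neuron-like cells. The neuron-like class was named only in the main clustering.

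The results turn most on Pros1 and Axl, which were higher in injured astrocyte-like cells, and on Trem2, which was nearly limited to microglia-like cells, so the 250 bases before their RefSeq transcription starts are shown for reference. Pros1 (ENSMUSG00000022912) lies on the plus strand of chromosome 16 from 62854307 to 62929346, Axl (ENSMUSG00000002602) on the minus strand of chromosome 7 from 25757273 to 25788705, and Trem2 (ENSMUSG00000023992) on the plus strand of chromosome 17 from 48346401 to 48354147, all in GRCm38 (GENCODE M21). Capitals mark matches to TGANTCA, a loose AP-1 pattern with any middle base, or to the STAT motif TTCNNNGAA, searched on both strands. Each sequence is written 5′ to 3′ on its gene's strand from RefSeq (GRCm38.p6).
Pros1, chr16:62854057-62854306: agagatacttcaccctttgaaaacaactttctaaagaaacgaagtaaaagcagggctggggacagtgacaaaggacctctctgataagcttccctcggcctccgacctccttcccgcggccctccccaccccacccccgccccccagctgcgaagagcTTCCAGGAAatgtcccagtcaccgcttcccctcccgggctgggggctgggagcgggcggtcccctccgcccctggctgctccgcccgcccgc
Axl, chr7:25788734-25788983: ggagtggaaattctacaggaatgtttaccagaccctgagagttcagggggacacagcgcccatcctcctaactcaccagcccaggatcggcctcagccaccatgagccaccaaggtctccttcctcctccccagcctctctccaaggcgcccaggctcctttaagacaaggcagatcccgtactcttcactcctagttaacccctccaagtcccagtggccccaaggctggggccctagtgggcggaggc
Trem2, chr17:48346151-48346400: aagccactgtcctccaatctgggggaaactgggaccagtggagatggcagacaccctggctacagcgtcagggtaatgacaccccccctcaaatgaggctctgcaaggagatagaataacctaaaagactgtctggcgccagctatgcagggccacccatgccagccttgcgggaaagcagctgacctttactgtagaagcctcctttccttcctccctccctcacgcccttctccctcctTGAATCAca
A STAT match lay 92 to 84 bases before the Pros1 start and a TGANTCA match 9 to 3 bases before the Trem2 start, and the Axl window held neither. The Trem2 match reads TGAATCA, with a middle base outside the AP-1 consensus TGA(G/C)TCA that the study gives. Of 32851 promoter windows of this length, 6.75% held a TGANTCA match with any middle base and 7.02% a STAT match. Among the 7 members in the promoter table (the set without Megf10), 1 held each. Of 6 other motifs searched in the same windows, GAGGAAGT (PU.1), the NFI motif, TATAAA and ACAATG had no match in a member, AGGTCA was found in Trem2 and ACAAAG in Pros1, beside 14.0% and 16.5% of all windows.

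The other members lie, in the same annotation, on chromosome 2 from 128698956 to 128802894 (Mertk, plus strand), on chromosome 16 from 33829665 to 33949338 (Itgb5, plus strand), on chromosome 8 from 13465374 to 13494490 (Gas6, minus strand) and on chromosome 7 from 79133768 to 79149060 (Mfge8, minus strand). All are annotated as protein coding. Mertk overlaps Gm23172 on its own strand and Gm14011 on the other, and Gas6 overlaps Tmem255b on the other strand.

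Megf10 was highest in astrocyte-like cells in both libraries and had no UMI in any microglia-like cell. Astrocyte-like cells held it at 108 CPM injured (94.98 to 123, 241 UMIs) and 183 CPM uninjured (175 to 191, 2052 UMIs). These intervals do not overlap, and the ratio of injured to uninjured was 0.592 (0.516 to 0.677), or -0.75 on the log2 scale with 1 CPM added to both sides. The injured astrocyte-like cells lay mostly in cluster 4 and the uninjured ones in clusters 5, 6 and 11, which holds for every comparison of this class. OPC-like cells of the injured library came next at 42.3 CPM, 2.56-fold below astrocyte-like cells (1.83 to 3.66), followed by injured ependymal-like cells at 26.7 CPM. In uninjured ependymal-like cells the level was 69.4 CPM on only 11 UMIs. The ependymal-like ratio of injured to uninjured was 0.385 (0.196 to 0.826), and 0.392 (0.185 to 0.905) in male-scored cells. Neuron-like cells stood at 107 CPM uninjured and 6.80 CPM injured. This shallow class was named only in the main clustering and in none of the alternative ones. It carried the 8 astrocyte markers at a summed 5783 CPM uninjured and 748 CPM injured. Its summed neuron markers were 3068 CPM uninjured, below its astrocyte markers, and 5264 CPM injured. Astrocyte RNA thus moved with Megf10 there, and its part was not tested. In injured microglia-like cells 0 UMIs in 128 cells, taken as a limit of 3 counts here and for other zeros, allow a level of up to 1.59 CPM and a share of cells with a UMI of up to 2.34%.

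The share of astrocyte-like cells with a Megf10 UMI was 31.5% injured (26.9 to 36.4%) against 42.8% uninjured (41.0 to 44.5%). With each cell thinned to 1000 gene UMIs, which left out 33 injured and 67 uninjured cells, the shares were 8.19% and 17.7%. Both measures put the injured cells lower. When every cell counted equally in place of by its depth, the log2 difference widened to -1.29 (thinned cells) or -1.0 (mean of per-cell CPM), past the 2-fold line that the depth-weighted value did not reach. Over all genes at 20 CPM or more, 14.1% and 12.6% were then 2-fold or more lower, beside 7.68% with depth weighting.

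Mertk, the receptor tyrosine kinase shared by microglia, macrophages and astrocytes, was highest in microglia-like cells. Its level there was 350 CPM injured (324 to 378, 662 UMIs) and 436 CPM uninjured (325 to 574, 51 UMIs), and the ratio of 0.803 (0.603 to 1.09) did not exclude equality and was 1.05 in male-scored cells. Microglia-like cells exceeded astrocyte-like cells 3.17-fold in the injured (2.73 to 3.68) and 2.65-fold in the uninjured library (1.97 to 3.50). Astrocyte-like cells themselves went from 165 CPM uninjured (157 to 172) to 110 CPM injured (97.1 to 125), a ratio of 0.671 (0.585 to 0.767). The lower level in injured astrocyte-like cells was thus seen for both Megf10 and Mertk, and it was also present in male-scored cells alone, with ratios of 0.645 (0.531 to 0.777) and 0.686 (0.563 to 0.829). Endothelial-like cells also had a lower Mertk level in the injured library, 48.1 against 141.5 CPM, on 36 and 15 UMIs. In male-scored endothelial-like cells the ratio of 0.524 (0.212 to 1.41) did not exclude equality. Uninjured endothelial-like cells carried 6 of 8 mural markers (summed 906 CPM, Acta2 and Notch3 at 0) and 8 of 8 astrocyte markers (538 CPM), against 6 of 8 (37.4 CPM) and 4 of 8 (94.8 CPM) in injured ones, and their part in the Mertk difference was not tested.

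Axl, the kinase related to Mertk that is best known from inflamed and stressed tissue, was instead higher in injured astrocyte-like cells. Its level was 91.2 CPM injured (79.0 to 105, 203 UMIs) and 50.1 CPM uninjured (46.1 to 54.4, 563 UMIs), a ratio of 1.82 (1.54 to 2.14). In male-scored cells the ratio was 1.55 (1.20 to 1.96). The share of astrocyte-like cells with an Axl UMI was 33.1% injured and 15.9% uninjured, and 8.19% and 4.95% after thinning. In microglia-like cells Axl was 59.7 CPM injured on 113 UMIs, while the uninjured value of 17.1 CPM rested on 2 UMIs of a single cell, so the ratio of 3.49 had an interval from 0.945 to 29.2 and was 1.79 in male-scored cells, short of 2-fold. Fibroblast-like cells held Axl at 80.4 CPM injured and 113 CPM uninjured with overlapping intervals, and 48 of the 95 uninjured cells of this class came from a cluster (13, led by Apod and Dcn) with 0 injured cells. Endothelial-like cells had 0 UMIs in the injured and 2 in the uninjured library. In the order of injured levels, astrocyte-like, fibroblast-like and microglia-like cells did not differ from their neighbours beyond counting error, although microglia-like cells were at 0.656 of the astrocyte-like level (0.516 to 0.829), and OPC-like cells followed 2.23-fold below microglia-like cells (1.44 to 3.56).

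Trem2 was all but restricted to microglia-like cells, which held 2445 of 2459 injured UMIs (99.4%) and 89 of 95 uninjured UMIs (93.7%). Its level there was 1293 CPM injured (1242 to 1345) and 761 CPM uninjured (611 to 937), a ratio of 1.70 (1.37 to 2.12) in all cells and of 1.78 (1.37 to 2.36) in male-scored cells. The share of microglia-like cells with a UMI was 87.5% injured and 67.7% uninjured. After thinning it was 64.5% (55.3 to 73.0%) and 46.4% (27.5 to 66.1%), intervals that overlap. Astrocyte-like cells, which serve as the background, had a Trem2 UMI in 1.55% of injured cells at a median of 3931 gene UMIs and in 0.195% of uninjured cells at 3252, against medians of 13724 and 3169 in microglia-like cells. Those cells held 7 injured and 6 uninjured Trem2 UMIs beside 22 and 12 UMIs of C1qa, a complement gene of microglia, and the part of free RNA in them was not tested.

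Itgb5, the beta subunit of the integrin that takes up Mfge8-coated cargo, was also highest in microglia-like cells. It stood at 654 CPM injured (618 to 691, 1236 UMIs) and 411 CPM uninjured (303 to 544, 48 UMIs), a ratio of 1.59 (1.19 to 2.17). In male-scored microglia-like cells, 60 injured and 14 uninjured, the ratio was 2.02 (1.37 to 3.08). Astrocyte-like cells were 8.98-fold lower than microglia-like cells in the injured library (7.62 to 10.7), at 72.7 CPM injured and 75.7 CPM uninjured. That difference of -0.06 on the log2 scale lay within counting error (ratio 0.808 to 1.14). Although an Itgb5 UMI was present in more injured (28.7%) than uninjured (22.0%) cells of this class, the thinned shares were 6.78% and 7.44%, so the higher share at full depth was not seen at equal depth. Fibroblast-like cells held 119 and 88.3 CPM. OPC-like cells of the injured library had 0 UMIs in 41 cells, which allows up to 3.10 CPM, and endothelial-like cells had 1 UMI over both libraries.

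Among the bridging proteins, Gas6, the ligand that activates both Mertk and Axl, was led by endothelial-like cells. These held 184 CPM injured (155 to 218, 138 UMIs) and 358 CPM uninjured (254 to 492, 38 UMIs), a ratio of 0.514 (0.357 to 0.757). Ependymal-like cells showed the same direction, with 71.9 CPM injured and 151 CPM uninjured (ratio 0.475, 0.305 to 0.770), and in male-scored cells alone the ratios were 0.487 and 0.528. The astrocyte and mural markers given for endothelial-like cells beside Mertk moved with Gas6 too, and their part was not tested. Microglia-like cells held 149 CPM injured and 128 CPM uninjured without a difference beyond counting error. Astrocyte-like cells held 59.3 and 49.8 CPM (ratio 1.19, 0.978 to 1.44), below microglia-like cells by 2.51-fold in the injured library (2.03 to 3.11).

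Pros1, the other Mertk ligand, gave the largest injured to uninjured ratio among the members that reached 20 CPM in astrocyte-like cells. It stood at 124 CPM injured (110 to 139, 276 UMIs) and 41.4 CPM uninjured (37.7 to 45.3, 465 UMIs), a ratio of 2.99 (2.57 to 3.48) and 1.56 on the log2 scale. In male-scored cells the ratio was 2.84 (2.29 to 3.50). Cells with a Pros1 UMI made up 35.4% of the injured and 12.97% of the uninjured class, and the thinned shares were 7.63% (5.09 to 10.9%) and 3.79% (3.13 to 4.53%). Uninjured astrocyte-like cells were thus low for Pros1 among the classes, 3.75-fold below fibroblast-like cells (2.75 to 5.02), whereas in the injured library fibroblast-like, microglia-like, endothelial-like, OPC-like and astrocyte-like cells ran from 168 to 124 CPM with no step between neighbours beyond counting error, although fibroblast-like and microglia-like cells exceeded astrocyte-like cells 1.35-fold (1.08 to 1.68) and 1.19-fold (1.00 to 1.41). With the injured cells above 50000 UMIs included, the injured fibroblast-like level of Pros1 was 125 CPM in place of 168 CPM. Ependymal-like cells led the injured library at 269 CPM (452 UMIs), 1.60-fold above the fibroblast-like cells kept (1.31 to 1.97). Their uninjured level was 183 CPM on 29 UMIs, a ratio of 1.47 whose interval began at 1.01.

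Mfge8, the bridge to the alpha v integrins, was found mainly in fibroblast-like, endothelial-like, OPC-like and astrocyte-like cells and was low in microglia-like cells. Fibroblast-like cells held 171 CPM injured and 128 CPM uninjured, and astrocyte-like cells 80.4 and 77.7 CPM, a ratio of 1.03 (0.876 to 1.22). With the injured cells above 50000 UMIs included, the injured fibroblast-like level of Mfge8 was 97.7 CPM in place of 171 CPM. Microglia-like cells stood at 16.4 CPM injured, 4.90-fold below astrocyte-like cells (3.34 to 7.43), and at 17.1 CPM on 2 UMIs uninjured. Injured mural-like cells, only 13 in number and so not described further, had 81 Mfge8 UMIs (954 CPM) and 28 Itgb5 UMIs (330 CPM). In the injured library fibroblast-like cells were thus the highest of the described classes for Mfge8 and stood next after microglia-like cells for Itgb5.

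A fixed size rule summarised the comparison of conditions: a gene counted as different at 2-fold or more among genes with at least 20 CPM on the mean of both conditions. In astrocyte-like cells 7 members were measured at that level (all but Trem2), of which 1, Pros1, was 2-fold or more higher in injured cells, where 14.2% of the 7072 genes at that level were, and 0 were lower, where 7.68% were. In either direction this is 1 of 7 members beside 21.9% of all genes. The median log2 ratio of the 7 members was 0.05, beside 0 over all genes. In microglia-like cells 6 members were measured (without Megf10 and Mfge8), and 1, Axl with its 2 uninjured UMIs, was higher, beside 11.1% of 6141 genes, and 0 were lower, beside 21.0%. In either direction the background was 32.1% of these genes. The median there was 0.44 for the members and -0.22 for all genes. Between the classes of the injured library all 8 members reached 20 CPM, with 4 members (Mertk, Trem2, Itgb5 and Gas6) 2-fold or more higher in microglia-like than in astrocyte-like cells, beside 20.7% of 7160 genes, and 2 (Megf10 and Mfge8) lower, beside 27.4%.

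**Figure D2:**
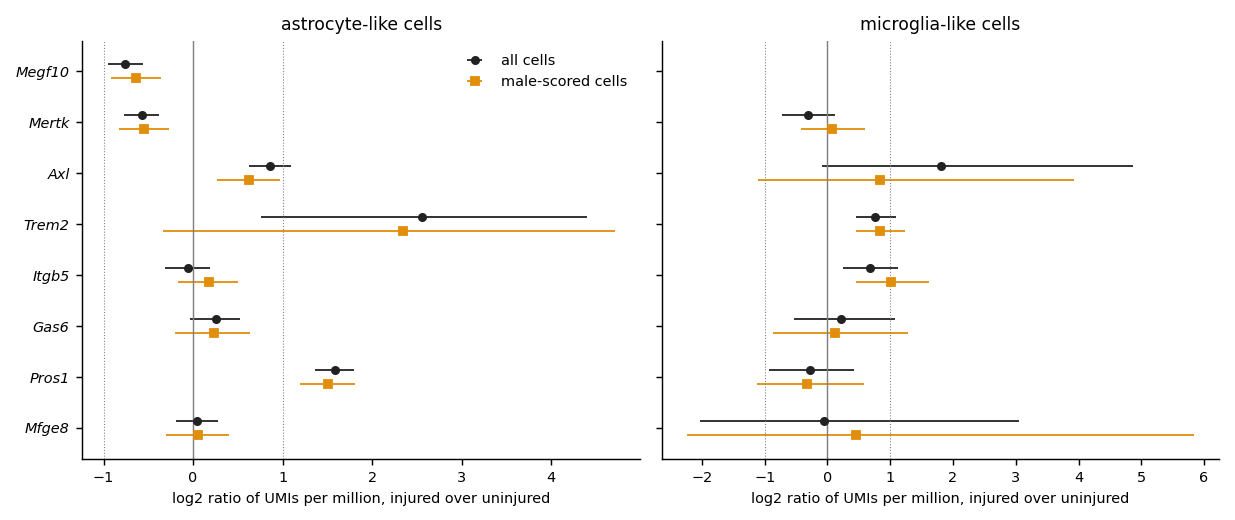
Log2 ratios of CPM, injured over uninjured, for each gene in astrocyte-like (left) and microglia-like cells (right), in all cells (circles) and in male-scored cells (squares). Bars are exact conditional binomial 95% intervals and dotted lines mark 2-fold. In astrocyte-like cells Pros1 and Axl lie above 0 and Megf10 and Mertk below it in both sets of cells, while the Trem2 point rests on 7 and 6 UMIs. Megf10 had no UMI in microglia-like cells and is not drawn there.

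The astrocyte-like cells of the conditions came mostly from different clusters, formed without the 8 genes. Most of the injured ones, 337 of 387, lay in cluster 4, whose leading genes were Gfap, Lcn2 and Timp1 and which took in 28 of the 3077 uninjured cells, while clusters 5, 6 and 11 had 795, 878 and 1376 uninjured cells and 39, 4 and 7 injured ones. Within cluster 4 the injured cells had Pros1 at 127 CPM and the 28 uninjured cells at 97.5 CPM on 13 UMIs, with a ratio of 1.31 (0.751 to 2.49). Axl was 92.6 and 82.5 CPM in the same cells. Both were about as high in the few uninjured cells of this cluster as in the injured ones, within intervals that also allow a difference of 2-fold. Mfge8 was lower in the injured than in the uninjured cells of cluster 4, at 80.6 and 157 CPM (0.512, 0.324 to 0.849). Megf10 and Mertk in cluster 4 had ratios of 0.910 (0.539 to 1.65) and 0.791 (0.483 to 1.38), and Megf10 in cluster 5 had 0.761 (0.466 to 1.18), none of which excluded equality. Within cluster 5 the 39 injured cells had 62.6 CPM of Pros1 on 7 UMIs against 30.8 CPM (2.03, 0.782 to 4.47), and Mertk was 268 against 190 CPM (1.41, 0.940 to 2.06).

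Among the 3 large uninjured clusters the members varied as well, and so did the median depth, at 1956 gene UMIs in cluster 5, 3403.5 in cluster 6 and 3935.5 in cluster 11, whose part was not tested. Megf10 ran from 247 CPM in cluster 5 to 158 CPM in cluster 11, a ratio of 1.56 (1.39 to 1.75), and Mertk from 190 to 146 CPM in the same order (1.30, 1.15 to 1.48). Mfge8 ran the other way, from 94.8 CPM in cluster 11 to 44.0 CPM in cluster 5, a ratio of 2.16 (1.70 to 2.76), and so did Pros1, from 43.6 to 30.8 CPM (1.42, 1.06 to 1.93). Cluster 11 was led by Cldn10 and Hsd11b1, and cluster 5 by Gm26917 and Taco1. Axl, Itgb5 and Gas6 differed by at most 1.21-fold between these clusters, with intervals that included 1.

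**Figure D3:**
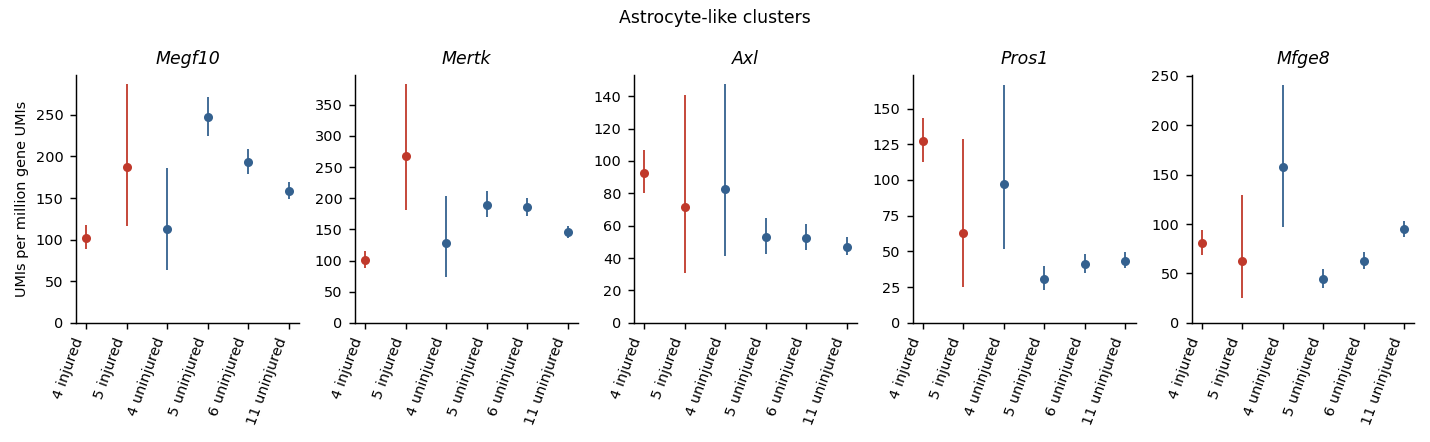
Levels of 5 members in CPM (y axis, linear, own scale per gene) in the astrocyte-like clusters with at least 20 cells of a condition (x axis, cluster number and condition), with injured cells in red and uninjured cells in blue. Bars are exact Poisson 95% intervals. Pros1 is lowest in the uninjured cells of clusters 5, 6 and 11, at 30.8 to 43.6, while Mfge8 and Megf10 run in opposite directions between clusters 5 and 11.

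Within the injured astrocyte-like cells, those with a UMI of Lcn2 or Timp1, genes of the reactive state, were compared with those without. The 175 cells with such a UMI (median 4838 gene UMIs) exceeded the 212 cells without one (median 3206.5) for Mfge8, at 94.6 and 59.99 CPM (1.58, 1.14 to 2.21), for Axl, at 102 and 75.3 CPM (1.36, 1.01 to 1.84), and for Pros1, at 137 and 105 CPM (1.31, 1.02 to 1.70). The intervals of the other 5 members included 1. Depth moved with this split, and its part was not tested.

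The injured microglia-like cells could be divided by the markers each cell carried. Cells with a UMI of P2ry12, Tmem119 or Siglech, genes of resident microglia, and none of Ms4a7, Ccr2, F13a1, Mrc1, Plac8 or Ly6c2, genes of monocytes and macrophages, numbered 52, those with the opposite pattern 27, those with both 42, and those with neither 7. Pros1 was 232 CPM in cells with microglial markers only and 42.4 CPM (15 UMIs) in those with macrophage markers only, a ratio of 5.46 (3.23 to 9.96). Mertk stood at 517 and 187 CPM (2.77, 2.13 to 3.64), Itgb5 at 845 and 345 CPM (2.45, 2.02 to 3.00), Gas6 at 161 and 79.2 CPM (2.04, 1.34 to 3.18) and Trem2 at 1492 and 789.5 CPM (1.89, 1.66 to 2.16). Axl did not follow this order, at 63.0 and 56.6 CPM (1.11, 0.651 to 1.97). Median depth was 15597.5 gene UMIs in the first group and 12102 in the second, and a cell without a marker UMI may still express the marker. The part of this mix in the injured to uninjured ratios of microglia-like cells, such as those of Pros1 and Mertk, was not tested.

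**Figure D4:**
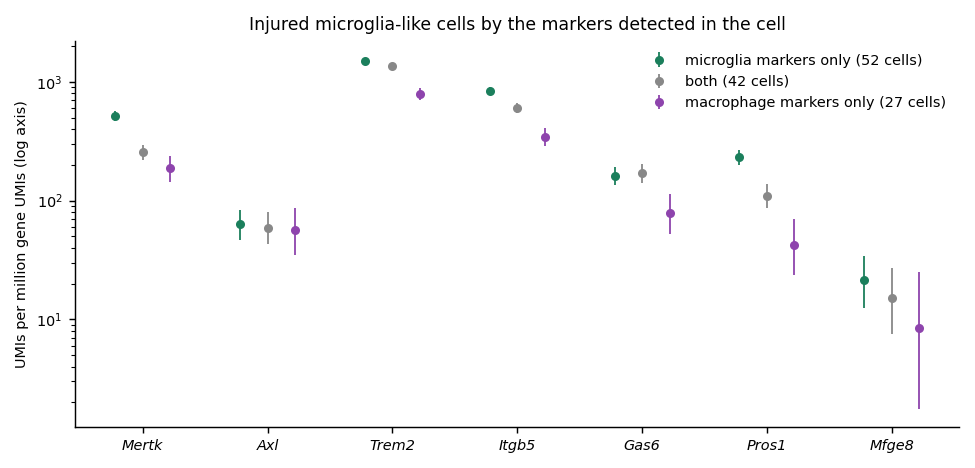
Levels of 7 members in CPM (log axis) in injured microglia-like cells that carried UMIs of microglial markers only (green, 52 cells), of both marker sets (grey, 42 cells) or of macrophage markers only (purple, 27 cells). Bars are exact Poisson 95% intervals. Pros1, Mertk, Itgb5 and Trem2 descend from the first to the last group, and Axl lies between 56.6 and 63.0 in all of them.

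The 47 other genes of engulfment were described in the same way, as 16 further receptors, 10 ligands and signals, 13 signalling and shedding genes, and 8 phagosome and lysosome genes. In astrocyte-like cells 24 of them reached 20 CPM, and 5 were 2-fold or more higher in injured cells and 2 lower, with a median log2 ratio of 0.40, beside 14.2% and 7.68% of all genes and their median of 0. In male-scored cells alone the counts were 5 and 2, beside 11.8% and 5.11% of all genes. Clu, an apolipoprotein that coats debris, stood at 5418 CPM injured and 856 CPM uninjured (log2 ratio 2.66). The lysosomal proteases Ctsb (1148 and 244 CPM, 2.23) and Ctsd (767 and 243 CPM, 1.66) and the lysosomal membrane protein Lamp1 (804 and 362 CPM, 1.15) made up 3 of the 7 phagosome and lysosome genes measured, and none of the 7 was lower. Calr, the endoplasmic reticulum chaperone that can mark cells for engulfment, was the fifth, at 374 and 161 CPM.

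Of the 13 signalling and shedding genes 9 were measured, with 0 higher and 2 lower and a median log2 ratio of 0.06. Over all genes 14.2% were higher and 7.68% lower, with a median of 0. Gulp1, an adaptor that binds engulfment receptors of the Megf10 type, stood at 54.3 CPM injured and 190 CPM uninjured, a log2 ratio of -1.79, and Elmo2, a partner of Dock1 in the activation of Rac1, at 48.9 and 116 CPM (-1.23). These were the 2 genes counted as lower. Values for Dock1 were 192 and 271 CPM (-0.49) and for Rac1 165 and 110 CPM (0.58), neither past 2-fold. Of the further receptors only Lrp1, Itgav and Adgrb1 reached 20 CPM, and none was past 2-fold. Itgav, the alpha v subunit that pairs with Itgb5, was 208 and 183 CPM.

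In microglia-like cells 36 of the 47 genes reached 20 CPM, with 9 higher and 4 lower and a median log2 ratio of 0.41, beside 11.1% and 21.0% of all genes and their median of -0.22. Apoe, a lipid carrier bound by Trem2, stood at 21350 CPM injured and 6013 CPM uninjured (1.83). Tyrobp, the adaptor through which Trem2 signals, was 3265 and 1522 CPM (1.10), and Ctsd 11590 and 4123 CPM (1.49). Thbs1 (166 and 42.8 CPM, 1.93), Dock1 (64.5 and 17.1 CPM, 1.86) and Anxa5, a phosphatidylserine-binding protein (328 and 137 CPM, 1.25), rested on 5, 2 and 16 uninjured UMIs. The remaining 3 were Stab1, Ctsl and Abca1. Lower values were found for the scavenger receptor Cd36 (16.9 and 222.4 CPM, -3.64), Clu (-1.42, with 6 uninjured UMIs and a ratio interval up to 1.05), Crk (-1.41) and Elmo1 (525 and 1360 CPM, -1.37). With 31 uninjured microglia-like cells and 116919 gene UMIs behind them, many of these values have wide intervals.

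**Figure D5:**
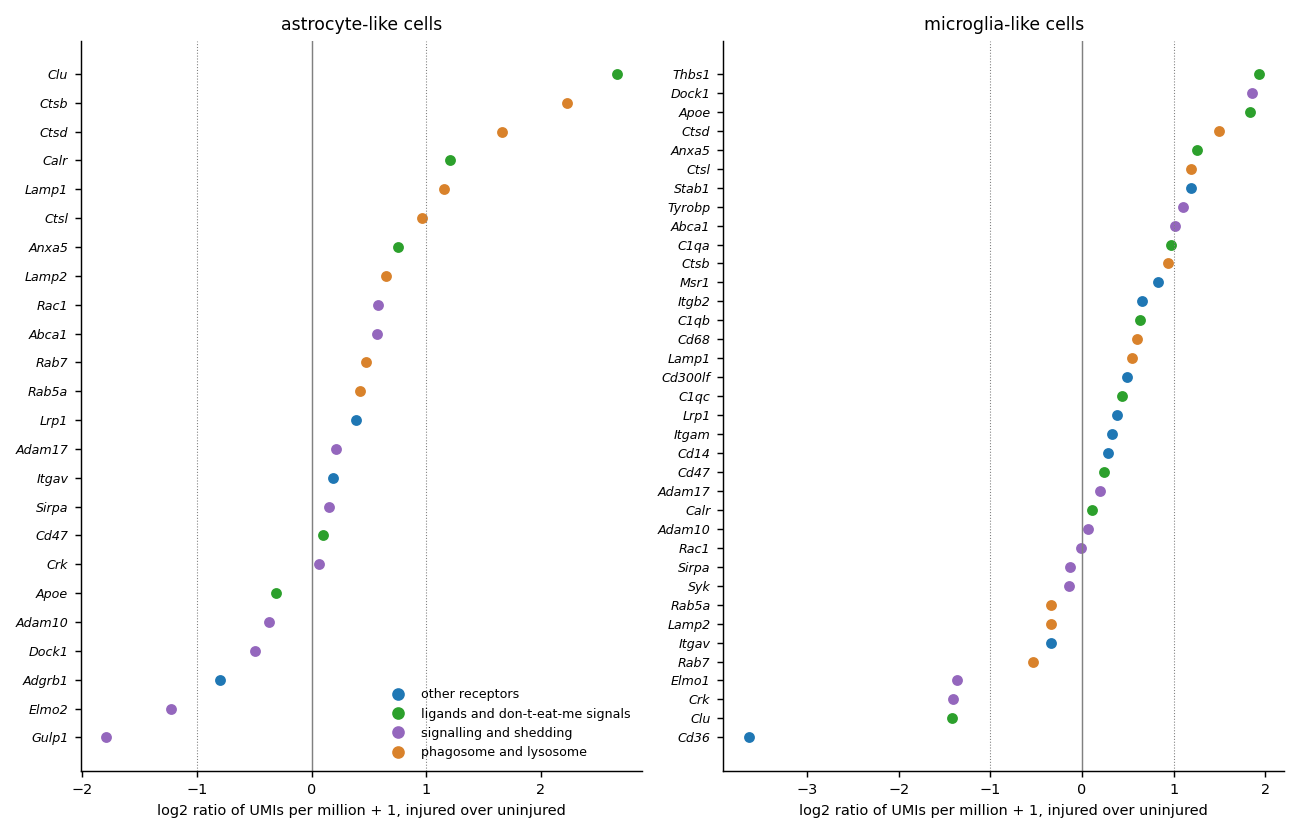
Log2 ratios of CPM plus 1, injured over uninjured, for the other engulfment genes at 20 or more on the mean of both conditions, in astrocyte-like (left, 24 genes) and microglia-like cells (right, 36 genes). Genes are sorted by their ratio, colours mark the list each belongs to, and dotted lines mark 2-fold. In astrocyte-like cells the lysosomal genes lie to the right of 0 and Gulp1 and Elmo2 to the left of the 2-fold line.

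The genes most like each member were sought over 13 class and condition sums, as Pearson's r of log2(CPM + 1) among 8943 other genes whose highest sum reached 50 CPM. The sums share libraries and differ in depth, and r is given as a description. Megf10 was most like Hepacam (r = 0.981), Bmpr1b (0.978) and Shisa4 (0.974), and Trem2 most like Apoc2 (0.983), Lilrb4a (0.981) and C1qc (0.978). The genes closest to Mertk were Dgkz (0.944), Irak2 (0.905) and Prkcd (0.905). For the ligands they were Trim12c (0.945), Card19 (0.939) and Mtus1 (0.927) with Gas6, Krcc1 (0.958), Plekha2 (0.952) and Ptbp1 (0.948) with Pros1, and Eif2b3 (0.934), Mia3 (0.927) and Gng11 (0.925) with Mfge8. Axl and Itgb5 had the least similar neighbours, Fam20c (0.853), Cyp27a1 (0.826) and Spata5 (0.8) for Axl and Notch2 (0.872), Chsy1 (0.861) and Lacc1 (0.845) for Itgb5.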

How the data were processed

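Single-cell libraries of tdTomato-positive spinal cord cells were analysed, 1 per condition, from the matrices of UMI counts per gene and cell that the authors deposited. The submitters' processing notes name Cell Ranger 8.0.1 and mm10, whereas the headers of both matrices name Cell Ranger 7.1.0. The deposited counts are not normalised. The 8 genes and all lists were chosen with earlier results of these data known.

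Cells with 500 to 50000 gene UMIs were kept, which removed 40 injured cells. Cells were clustered in scanpy 1.11.5 (2000 variable genes, 15 components, 15 neighbours, Leiden resolution 0.5) without the 8 genes, the 47 listed genes and the reporter genes. Clusters were named "-like" from marker lists where the best list scored over 0.2, 10% or more of the cluster's cells carried each of 3 or more markers, and no other list had more genes among the 10 leading genes, a condition that left 1 cluster unnamed. The 7 barcodes shared by the libraries were kept, and so was the 1 cell that Scrublet called a doublet, a rate at which the caller cannot be said to have worked. Counts were summed per class and condition and given as UMIs per 1000000 gene UMIs (CPM), and 1 was added before log2 ratios. Genes at 20 or more on the mean of both sums were compared, and 2-fold was the rule of size. The 8 members are named whatever their values, of the 47 listed genes up to 6 highest and 6 lowest past 2-fold per comparison, and for likeness the 3 closest genes by r. Other listed genes (Tyrobp, Ctsl, Abca1, Lrp1, Itgav, Adgrb1, and Dock1, Rac1, C1qa and C1qb in astrocyte-like cells) were named after their values were seen. The 2-fold rule and the intervals of ratios were tested on simulated class sums, and the other steps, such as clustering and naming, were not. A measure of free RNA that needs a gene withheld here is not reported. With 1 library per condition no test between conditions was made. Alternatives covered the cell filters, resolution, clustering genes, doublets, sex score, weighting of cells, thinning and the added constant.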

Additional observations from a re-analysis of the deposited data

Results flagged for a closer look

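Some genes had injured to uninjured ratios on opposite sides of 1 in different classes, with 95% counting intervals that did not overlap. The differences between classes were not tested, since each condition has 1 library, and the intervals cover counting error only.

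Pros1 had a ratio of 2.99 (2.57 to 3.48) in astrocyte-like cells, against 0.821 (0.527 to 1.35) in microglia-like and 0.663 (0.415 to 1.10) in endothelial-like cells. The injured microglia-like class mixed cells with microglial markers only, at 232 CPM of Pros1, and cells with macrophage markers only, at 42.4 CPM. The part of this mix in the microglia-like ratio was not tested. Axl had 1.82 (1.54 to 2.14) in astrocyte-like cells against 0.714 (0.465 to 1.11) in fibroblast-like cells, and in male-scored cells the intervals overlapped (1.20 to 1.96 and 0.492 to 1.66). Itgb5 had 1.59 (1.19 to 2.17) in microglia-like cells against 0.961 (0.808 to 1.14) in astrocyte-like cells. In male-scored cells both Itgb5 ratios were above 1, at 2.02 (1.37 to 3.08) and 1.13 (0.889 to 1.42), with overlapping intervals. Gas6 had 1.19 (0.978 to 1.44) in astrocyte-like cells against 0.475 in ependymal-like and 0.514 in endothelial-like cells, and in male-scored cells these intervals overlapped too. Mertk had 1.72 (0.943 to 3.36) in fibroblast-like cells, on 53 and 14 UMIs and 4.16 (1.55 to 14.0) in male-scored cells, against 0.671 in astrocyte-like and 0.340 in endothelial-like cells and 0 in neuron-like cells (upper limit 0.415, on 0 and 21 UMIs). In neuron-like cells the summed astrocyte markers were 5783 CPM uninjured and 748 CPM injured, and their part in this Mertk ratio was not tested. That class was named only in the main clustering. With the injured cells above 50000 UMIs included, the injured fibroblast-like level of Mertk was 24.3 CPM in place of 73.5 CPM, below the 42.6 CPM of the uninjured cells kept, so the direction turned.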

How the results depend on the processing

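Over 13 settings in astrocyte-like cells, Megf10, Mertk, Axl, Gas6 and Pros1 kept their direction, while Itgb5 (-0.28 to 0.17) and Mfge8 (-0.5 to 0.07) lay on both sides of 0. Log2 ratios ran from -1.29 to -0.63 for Megf10, -0.77 to -0.46 for Mertk, 0.62 to 0.91 for Axl and 1.1 to 1.8 for Pros1. The mean of per-cell values gave -1.0 for Megf10 and -0.29 for Mfge8, and thinned cells gave -1.29 and -0.5, so the count of members 2-fold or more lower went from 0 to 1 (Megf10) in both. The share of all genes that far lower rose too, from 7.68% to 12.6% with the mean of per-cell values and 14.1% in thinned cells. Thinned cells gave 1.1 for Pros1 and cells with an Aldh1l1 UMI (261 injured and 1835 uninjured) gave 1.8. Male-scored cells gave 0.62 for Axl, and 10 added in place of 1 gave 0.32 for Trem2, whose value was 1.43. Of the 47 listed genes in astrocyte-like cells, 2 were higher and 0 lower at 4-fold, where the share over all genes was not taken. With a floor of 5 CPM, 8 were higher and 3 lower. The higher ones then took in C1qa (9.88 CPM injured and 1.07 CPM uninjured), C1qb (18.4 and 1.16 CPM) and Tyrobp (12.1 and 0.178 CPM). In injured microglia-like cells these 3 genes stood at 5754, 6059 and 3265 CPM, and the part of free RNA was not tested. The share over all genes was not taken at that floor. The removal of the highest 5% of doublet scores and the counting of the unnamed cluster as astrocyte-like were chosen after seeing the data. No paired analysis was possible because the conditions share only 1 replicate number and each has 1 library. In microglia-like cells Mertk ran from -0.35 to 0.07 over 8 settings. That comparison rests on 31 uninjured cells. None of the alternative clusterings gave a cluster named neuron-like, so the levels of that class were not checked against other clusterings.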

Other observations

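Within the injured library, microglia-like cells scored female (43 cells) and male (60 cells) differed in several members. Mertk was 231 CPM in female-scored and 499.7 CPM in male-scored cells, a ratio of 0.462 (0.389 to 0.547). Axl was 74.2 and 46.2 CPM (1.07 to 2.43 for the ratio) and Gas6 182.5 and 125.5 CPM (1.14 to 1.87). Trem2 was 1203 and 1355 CPM (0.817 to 0.966). In astrocyte-like cells Mertk ran the other way, at 155 CPM in 74 female-scored and 114 CPM in 127 male-scored cells (1.36, 1.03 to 1.79). In the female-scored and male-scored microglia-like cells the summed microglial markers were 8683 and 9517 CPM and the macrophage markers 8206 and 9741 CPM. Most of the macrophage sums was Lyz2, at 7454 and 8861 CPM. P2ry12 was 220 and 336 CPM, while Tmem119 ran the other way at 182.5 and 138.7 CPM. By the marker split, 16 female-scored and 30 male-scored cells had microglial markers only. Those with macrophage markers only numbered 12 and 10, and those with both 15 and 19. The part of this mix in the Mertk difference was not tested. Ccr2, a receptor of infiltrating monocytes, was 74.2 and 27.5 CPM. The number of animals behind these cells is at most 2 per sex, and whether the animals differed in another way was not tested.

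The 40 injured cells above 50000 UMIs included 38 fibroblast-like cells. These held Itgb5 at 128 CPM, Pros1 at 116 CPM, Mfge8 at 81.2 CPM and Axl at 62.4 CPM, with Mertk at 13.2 CPM and Gas6 at 4.39 CPM. The fibroblast-like cells kept below that limit held Itgb5 at 119 CPM, Pros1 at 168 CPM, Mfge8 at 170.5 CPM and Axl at 80.4 CPM. Their Mertk level was 73.5 CPM and their Gas6 level 47.1 CPM.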
